A study of Mus musculus with 2 samples.

Results

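The tenth or eleventh intron of Sfmbt2, depending on the transcript, carries a dense array of microRNA (miRNA) genes of the families Mir297, Mir466, Mir467 and Mir669. Members were all miRNA genes of the count files that lie on the sense strand inside the bounds of Sfmbt2 (ENSMUSG00000061186.15, mm10 chromosome 2, 10370510 to 10595253, plus strand) and carry 1 of these 4 family names. This rule gave 71 of the 2202 miRNA genes counted. Short RNAs were sequenced from gastrocnemius, the large calf muscle. Tissue came from female adults, 18 to 20 months old, of B6CASTF1/J, the F1 hybrid between C57BL/6J and CAST/EiJ. The 2 libraries form a single group, with no treatment and no second condition, and are numbered as biological replicates 1 and 2. They share a donor entry in the labels but have separate tissue sample entries, so the spread between them may be technical. Reads from both parental genomes of the hybrid were counted on the single assembly mm10.

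Sfmbt2 encodes a Polycomb-group protein and is an imprinted gene, expressed from the paternal allele in mouse extraembryonic tissue. The miRNAs of its intron are specific to rodents, arose by tandem duplication and are best known from placenta and embryonic stem cells, where deletion of the array impairs placental growth. A miRNA binds its targets mainly through its seed, the bases 2 to 8 of the mature strand, so genes with near-identical hairpins can yield the same regulator. In muscle biology the best known member is miR-669a, which was reported to hold back the skeletal muscle programme in cardiac progenitors by repressing MyoD.

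The libraries held 865419 counts on miRNA genes in replicate 1 and 2177048 in replicate 2, 12.6% and 18.1% of all reads. Multimapping reads made up 80.7% and 71% of reads and have a tally of their own, outside every gene count. The 6 skeletal muscle miRNA genes used to check the tissue label (Mir206, Mir133b and the copies of Mir133a and Mir1a) all had counts in both libraries and held 4.07% and 10.4% of gene counts. Nearly all of this was Mir206, with 34953 of 35260 counts of the list in replicate 1 and 224741 of 225327 in replicate 2. The 5 leukocyte genes held 0.396% and 0.444%, and the 6 neural genes, the copies of Mir9 and Mir124a, held 1 count in replicate 1 and 5 in replicate 2. Reads that map to several copies of Mir9, Mir124a, Mir133a or Mir1a stay outside these counts. Low counts on such genes therefore do not show that the miRNA is absent.

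The RefSeq miRNA table for GRCm38.p6 matched 0 of the 71 members by symbol, and 8 of the 10 genes of the same families that lie elsewhere in the genome. The mature strands of these 8 relatives are shown because their letters display the repeats that also fill the hairpins of the array. Capitals mark the seed.
mmu-miR-466i-3p: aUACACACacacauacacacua
mmu-miR-466q: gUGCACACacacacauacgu
mmu-miR-467f: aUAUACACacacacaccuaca
mmu-miR-467g: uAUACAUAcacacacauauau
mmu-miR-466k: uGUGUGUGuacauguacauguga
mmu-miR-466j: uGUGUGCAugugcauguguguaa
mmu-miR-467h: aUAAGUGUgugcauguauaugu
mmu-miR-669n: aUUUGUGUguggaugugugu

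The first 4 of these strands are built on CA repeats and the last 4 on UG repeats, and no 2 of the 8 have the same seed. The letters UGUGUG stood in 66 of 71 member hairpins (93.0%), against 369 of all 2202 miRNA hairpins (16.8%). Their reverse complement CACACA stood in 66 of 71 (93.0%) against 272 of 2202 (12.4%). Both were searched on the hairpin's own strand only and overlap themselves in longer repeats. The letters of the miR-467g seed, AUACAUA, stood in 62 of 71 member hairpins (87.3%) and in 6.49% of all hairpins. Those of the miR-467h seed, UAAGUGU, stood in 1 member hairpin. No member hairpin held a whole mature strand of these 8 relatives. Of the 10 relatives, Mir466q (chromosome 3, 28419943 to 28420018) alone had counts, 2 in replicate 1 and 5 in replicate 2. It stood at 2.31 and 2.30 counts per 1000000 gene counts (CPM), and the other 9 had 0 counts in both libraries.

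All 71 members lie in 1 intron of 62.5 kb (10461473 to 10523944), which separates exons 10 and 11 of 1 host transcript and exons 11 and 12 of another. These are the 2 of 7 annotated host transcripts that span it. They span 51.6 kb of it, from Mir466m (start 10466663) to Mir669h (end 10518279), with a median gap of 209 bases between neighbours. In the middle of the array, Mir467, Mir466 and Mir669 genes follow each other in repeated units. Consecutive Mir467a and Mir467b genes start 2413 to 4880 bases apart, with a median of 2454.5 bases. The hairpins are 73 to 127 bases long and poor in G and C, at a median of 36.1% (31.5 to 43.4%) against 50.8% over all miRNA genes.

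The array is made of copies. By name, 43 members carry a copy number, such as Mir467a-1 to Mir467a-10 or Mir669a-1 to Mir669a-12, and 28 do not and are called single members here. This term rests on the symbol alone and does not mean that a gene has no close copy. Mir669d, for example, is a single member beside Mir669d-2. The 71 genes hold 53 distinct hairpin sequences. The 28 single members are all distinct, while the 43 numbered copies hold 25. In the largest set, the 9 genes Mir669a-4 to Mir669a-12 have the same hairpin of 87 bases. Mir467a-2, Mir467a-4, Mir467a-5, Mir467a-7, Mir467a-8 and Mir467a-9 share a hairpin of 83 bases with Gm25022, a miRNA gene of another name. Mir467a-3, Mir467a-6 and Mir467a-10 share another of 83 bases.

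How far a hairpin can be told apart was measured as the share of its 22-base windows, about the length of a mature miRNA, that occur in no other annotated miRNA hairpin. That share was 0 in 32 of 71 members (45.1%), against 298 of 2202 miRNA genes (13.5%). By name, 31 of the 43 numbered copies and 1 of the 28 single members, Mir466e, had no such window. The median share was 51.5% in single members and 0 in numbered copies, whose highest was 50.7% in Mir466f-1. Single members still shared at least 1 window with a median of 15 other hairpins, against 17 for numbered copies. With windows of 16, 18 or 20 bases, 32 of 71 members again had none. Copies elsewhere in the genome that are not annotated as miRNA genes do not enter this measure.

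Only single members had counts. Of the 71 members, 8 had sense counts in both libraries (11.3%), Mir466h in replicate 1 only, Mir669h in replicate 2 only, and 61 in neither. Over all miRNA genes, 422 of 2202 had counts in both libraries (19.2%). The 43 numbered copies had 0 counts in both libraries, and all 270 member counts of replicate 1 and all 698 of replicate 2 fell on 10 of the 28 single members. The 12 Mir669a genes, Mir467a-1 to Mir467a-10 and the 3 numbered Mir297a genes were thus all at 0. A count of 0 for the copies together allows a share of up to 3 counts, or 0.000347% of gene counts in replicate 1 and 0.000138% in replicate 2. This limit holds for reads placed at 1 locus and for counting error only. Reads that map to several copies lie in the multimapping tally, which outnumbered the member counts by 20581 to 1 and 12201 to 1, and how many of them came from the array was not analysed here. On the antisense strand the members had 0 counts in both libraries.

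**Figure D1:**
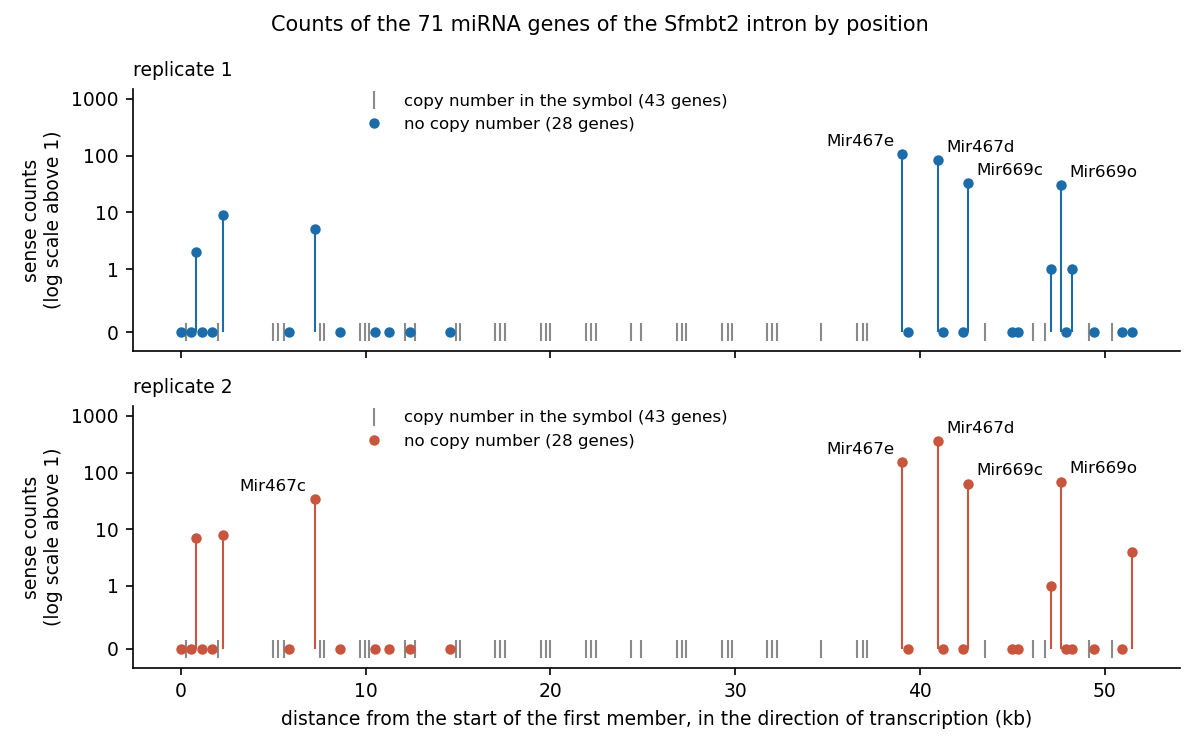
Sense counts (log scale above 1) of the 71 members by distance in kb from the first member, with 1 panel per library. Single members are points on stems and numbered copies are grey ticks. The 43 ticks all lie at 0, and the counts stand at either end of the array around a run of 38 genes at 0.

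The counts lay on either side of a long run of members at 0. Between Mir467c and Mir467e, 38 neighbouring members in a row had 0 counts in both libraries, from Mir466b-1 (start 10474219) to Mir669a-12 (end 10503877), a stretch of 29.7 kb. Its bounds were picked from the counts, as the longest run at 0, so its lack of counts was fixed by that choice. This stretch holds 33 numbered copies and 5 single members (Mir669k, Mir669g, Mir669j, Mir466e and Mir467b, the last reported to target lipoprotein lipase), and 31 of its 38 hairpins have no unique window. Upstream of it, 3 of 13 members had counts, and downstream 7 of 20. Position and uniqueness therefore moved together, and which of them goes with the counts cannot be told apart here.

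Members with at least 1 unique window were not all counted. Such a window can lie anywhere in the hairpin, and no mature strand of a member was available. Whether the unique part covers the mature strand is therefore not known, and a count of 0 does not show a silent gene. Of the 32 members with no unique window, 0 had counts, and of all 298 such miRNA genes 5 had (1.68%). Of the 39 members with at least 1 unique window, 10 had counts in either library (25.6%), against 601 of 1904 such miRNA genes (31.6%). Those 39 are 12 numbered copies, with 0 counts each, and 27 single members. The 10 members with counts had unique windows at a median of 61.1%, from 39.1% in Mir467d to 96.9% in Mir669e. The 29 members with a unique window but no count had a median of 38.1%, down to 13.2% in Mir669k. Mir466g, chosen here after its values were seen, had only unique windows (59 of 59) and 0 counts in both libraries, and Mir669b (89.5%) and Mir466l (89%) had 0 as well. Mir466l is a miRNA reported to stabilise the transcript of the cytokine IL-10.

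**Figure D2:**
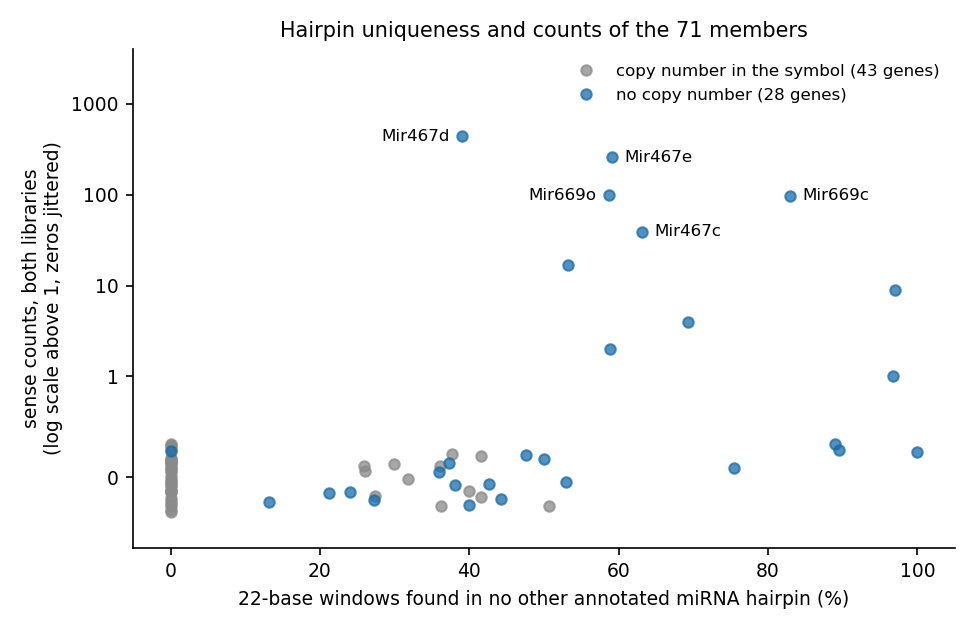
Each point is 1 of the 71 members: the share of its 22-base windows found in no other annotated miRNA hairpin (%) against its sense counts summed over both libraries (log scale above 1, zeros spread vertically for legibility). Numbered copies (grey) all lie at 0 counts; single members with counts (blue) begin at 39.1% unique windows.

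By family, the counts were held by Mir467 and Mir669. The family shares cover only reads placed at 1 locus. No unique window was found in 10 of 14 Mir467, 13 of 29 Mir669, 9 of 23 Mir466 and 0 of 5 Mir297 hairpins. The 14 Mir467 genes, 3 of them with counts, held 194 counts in replicate 1 and 545 in replicate 2. This was 71.9% of member counts (exact Clopper-Pearson 95% interval 66.1 to 77.1) and 78.1% (74.8 to 81.1). The 29 Mir669 genes, 5 with counts, held 74 and 152, or 27.4% (22.2 to 33.1) and 21.8% (18.8 to 25.0). The 23 Mir466 genes held 2 counts and 1 count, and the 5 Mir297 genes held 0 in both libraries. Of the single members, 3 of 4 Mir467 genes, 5 of 12 Mir669 genes, 2 of 10 Mir466 genes and 0 of 2 Mir297 genes had counts.

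Mir467d and Mir467e were the members with the most counts. Mir467d (ENSMUSG00000077021.2, chromosome 2, 10507630 to 10507714) had 83 counts in replicate 1 and 359 in replicate 2, or 95.9 and 165 CPM (130.4 ± 48.8, SD, n = 2). Mir467e (ENSMUSG00000076948.2, 10505721 to 10505807) had 106 and 152 counts, or 122 and 69.8 CPM (96.2 ± 37.2, SD, n = 2). Mir467e was thus the higher of these neighbours in replicate 1 and Mir467d in replicate 2. Among all 2202 miRNA genes, Mir467d ranked 138 and 128 by counts and Mir467e 126 and 171. By its hairpin, Mir467d is the less distinct of the pair, with 25 of 64 unique windows against 39 of 66. Both levels leave out reads that map to several places. The levels of copies with no unique window are not known, so these copies cannot be ranked against the pair.

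Mir669c and Mir669o formed the next level. Mir669c (ENSMUSG00000076118.1, 10509296 to 10509404) had 33 and 64 counts, or 38.1 and 29.4 CPM (33.8 ± 6.18, SD, n = 2). Mir669o (ENSMUSG00000077086.1, 10514300 to 10514395) had 30 and 69 counts, or 34.7 and 31.7 CPM (33.2 ± 2.10, SD, n = 2). They changed order between the libraries, and their counting intervals overlapped in both. Both lay below Mir467d and Mir467e in both libraries, with no overlap between the interval of Mir467e and that of Mir669c.

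The remaining members had few counts. Mir467c (ENSMUSG00000077049.2, 10473931 to 10474027) is the last member upstream of the long run with no counts. It had 5 counts in replicate 1 and 34 in replicate 2, or 5.78 CPM (exact interval 1.88 to 13.5) and 15.6 CPM (10.8 to 21.8). Mir669l had 9 and 8 counts, or 10.4 CPM (4.76 to 19.7) and 3.67 CPM (1.59 to 7.24). It stood above Mir467c in replicate 1, where their intervals overlapped, and below it in replicate 2, where they did not. Mir669e had 2 and 7 counts, Mir669h 0 and 4, Mir466n 1 and 1, and Mir466h 1 and 0. From Mir669l downwards, the intervals of neighbours in the order of levels overlapped in both libraries. For a gene at 0, the limit of 3 counts stands at 3.47 CPM for replicate 1 and at 1.38 CPM for replicate 2. The levels of Mir669e, Mir669h, Mir466n and Mir466h lie near or under these limits, so their order is not known.

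**Figure D3:**
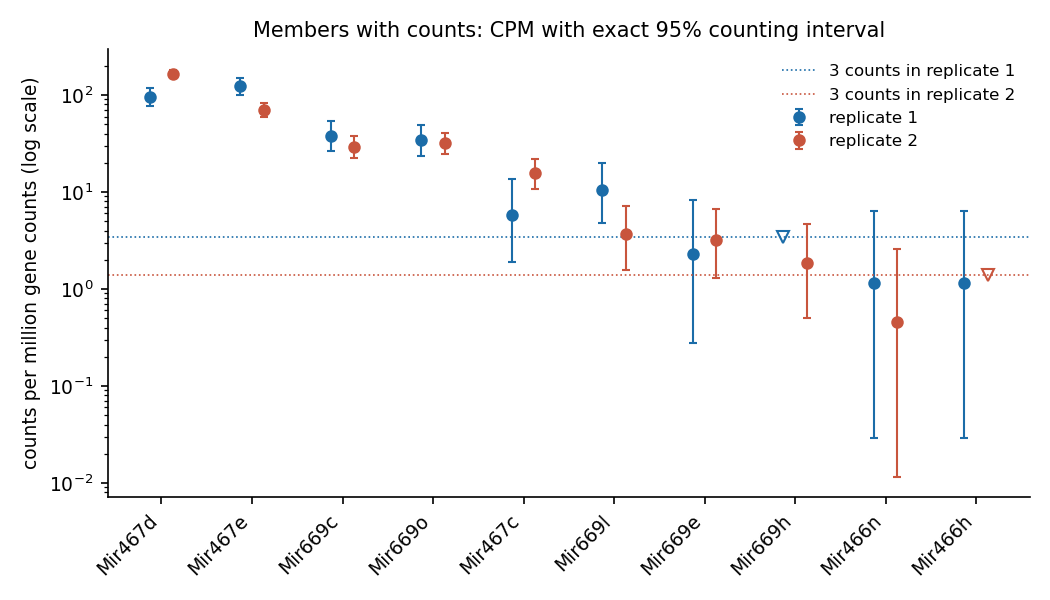
CPM (log scale) of the 10 members with counts in replicate 1 (blue) and replicate 2 (red), with exact 95% counting intervals. Dotted lines mark 3 counts in each library, and open triangles mark a count of 0 drawn at that limit; Mir467d and Mir467e exchange places between the libraries.

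The members with counts together held a similar share of both libraries when library totals were used. The shares of Mir467d and Mir467e among these counts differed. Reads that map to several places lie outside this sum, so it is not the level of the whole cluster. Member counts made up 0.0312% of gene counts in replicate 1 (exact interval 0.0276 to 0.0352) and 0.0321% in replicate 2 (0.0297 to 0.0345). The summed level in replicate 2 was 1.03 times that in replicate 1 (exact interval 0.892 to 1.19), 0.845 times with TMM scaling (0.733 to 0.976) and 0.769 times with DESeq2 size factors (0.668 to 0.889). The direction of the sum thus turned with the scaling. Whole muscle was sequenced, so fewer cells of a type and less RNA per cell cannot be told apart.

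Within the cluster, a comparison that needs no scaling is that of its genes with each other. Of the counts on Mir467d and Mir467e, Mir467d held 83 of 189 in replicate 1 (43.9%, exact interval 36.7 to 51.3) and 359 of 511 in replicate 2 (70.3%, 66.1 to 74.2). These intervals did not overlap, but they cover counting error only. In the exact test described below, 67.9% of 305 miRNA genes passed between the libraries with no ratio threshold. How many other pairs of genes differ as much was not counted. Of the counts on Mir669c and Mir669o, Mir669c held 52.4% (39.4 to 65.1) and 48.1% (39.4 to 56.9), which overlapped. Of all member counts, Mir467d held 30.7% and 51.4% and Mir467e 39.3% and 21.8%. Mir467c, Mir467d, Mir467e, Mir669c and Mir669o, the 5 members tested between the libraries, together held 95.2% (91.9 to 97.4) and 97.1% (95.6 to 98.2).

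**Figure D4:**
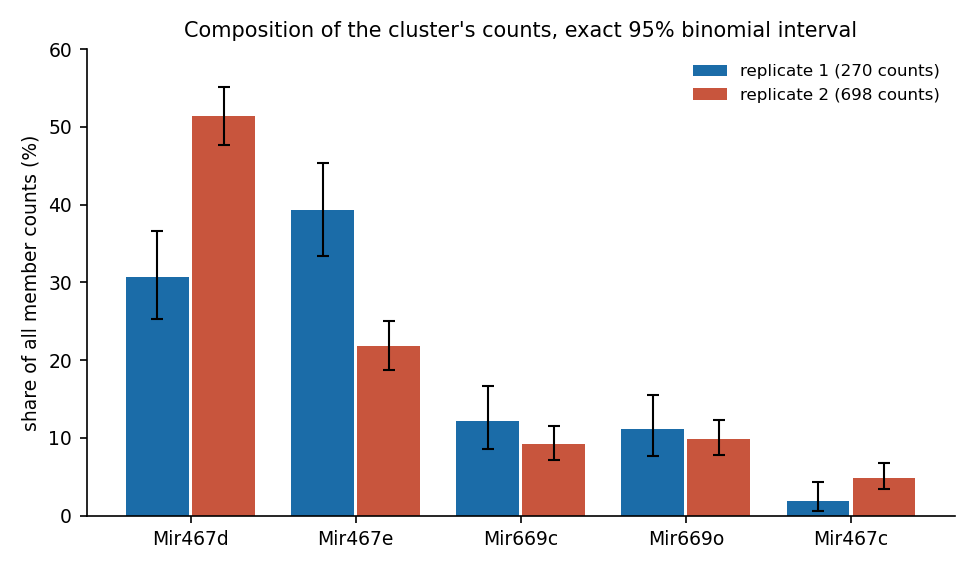
Share of all member counts (%) held by each of the 5 members tested between the libraries, in replicate 1 (blue, 270 counts) and replicate 2 (red, 698 counts), with exact 95% binomial intervals. Mir467d stands above Mir467e in replicate 2 only, while Mir669c and Mir669o hold similar shares in both.

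Between the libraries, 5 members had the mean of at least 10 counts needed for a test, and 1 was called. For each of 305 such miRNA genes, its counts in the 2 libraries were set against the library totals by an exact binomial test (two-sided). A gene was called at a Benjamini-Hochberg adjusted p under 0.05 over all 305 genes and a ratio of at least 2. This called 33.8% of all tested genes, and 26.9% were called higher in replicate 2. The test compares these 2 libraries and their counting error, not animals or conditions, and a share of 1 in 5 members is not above that background. The median log2 ratio of the 5 members was -0.13, against 0.43 over all tested genes.

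Mir467c was the called member, 2.70-fold higher in replicate 2 (exact interval 1.05 to 8.85, adjusted p = 0.0474 by the exact test). Its call rests on 5 counts in replicate 1 and was lost with TMM scaling (2.22-fold, adjusted p = 0.139) and with DESeq2 size factors (2.02-fold, adjusted p = 0.245). Mir467e was 1.75-fold higher in replicate 1 (1.36 to 2.26, adjusted p = 3.54e-05 by the exact test), under the ratio of 2. It was called by the same exact test with TMM (2.13-fold, adjusted p = 2.18e-08) and with DESeq2 size factors (2.34-fold, adjusted p = 3.27e-10). These scalings called 32.1% and 31.8% of all tested genes and no other member. Mir467d was 1.72-fold higher in replicate 2 (1.35 to 2.21, adjusted p = 7.22e-06 by the exact test), under the ratio of 2. It was 1.41-fold higher with TMM (adjusted p = 0.00750 by the exact test) and 1.29-fold with DESeq2 size factors (adjusted p = 0.0655), where it missed the p threshold too. With no ratio threshold, 3 of 5 members passed, Mir467c, Mir467d and Mir467e, against 67.9% of all tested genes.

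Mir669c and Mir669o passed neither threshold with library totals. Mir669c stood at 0.771 times its level of replicate 1 (0.499 to 1.21, adjusted p = 0.273 by the exact test) and Mir669o at 0.914 times (0.588 to 1.45, adjusted p = 0.709 by the same test). Relative to library totals, TMM moved every log2 ratio by -0.28 and DESeq2 size factors by -0.42. With DESeq2 size factors Mir669c stood at 0.577 times (adjusted p = 0.0261 by the exact test), still short of a 2-fold ratio. Mir467c and Mir467d kept a ratio above 1, and Mir467e, Mir669c and Mir669o one below 1, under all 3 scalings.

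**Figure D5:**
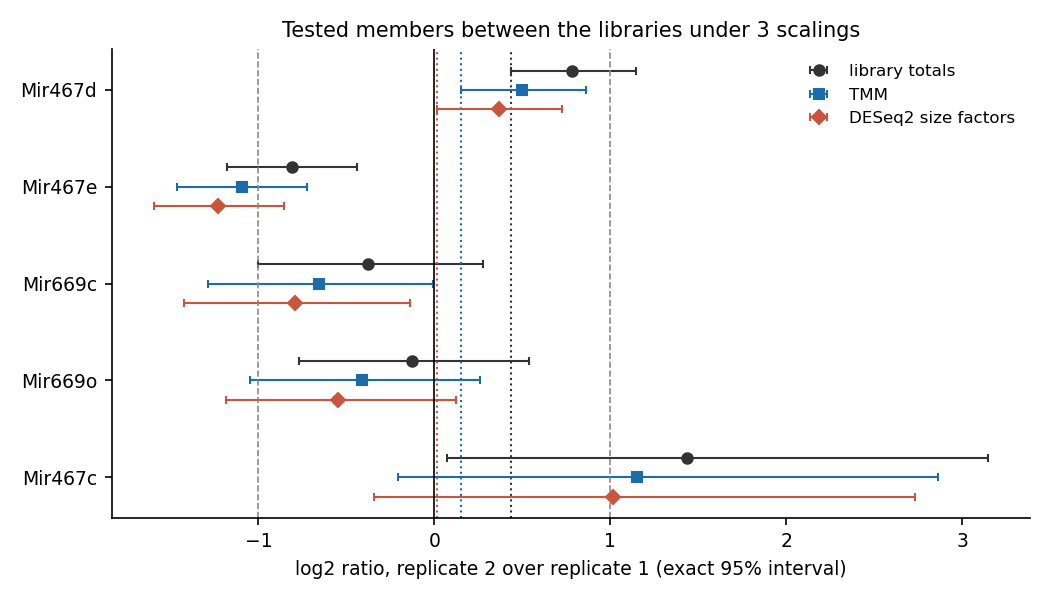
Log2 ratio of replicate 2 over replicate 1 for the 5 tested members with exact 95% intervals, under library totals (black), TMM (blue) and DESeq2 size factors (red). Dashed lines mark a 2-fold difference, dotted lines the median of all tested genes under each scaling; Mir467d and Mir467e lie on opposite sides of 0 throughout.

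The imprinted Dlk1-Dio3 miRNA genes on chromosome 12, from Meg3 to the end of Mirg, are the other large imprinted array and show where the Sfmbt2 array differs in description. There, 43 of 59 genes had counts in both libraries (72.9%), 1 hairpin had no unique window and the median share of unique windows was 100%. Their summed level was 2654 CPM in replicate 1 and 6575 CPM in replicate 2, against 312 and 321 CPM for the Sfmbt2 array. These sums are not alike, because both hold only reads placed at 1 locus. In the Sfmbt2 array, 32 of 71 hairpins have no unique window. How much of the gap between the sums goes with this was not tested. The Dlk1-Dio3 sum was 2.48 times as high in replicate 2 with library totals (exact interval 2.37 to 2.59), 2.04 times with TMM and 1.85 times with DESeq2 size factors. No test of this difference between clusters was made.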

How the data were processed

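MicroRNA-seq counts came from 2 libraries of gastrocnemius, 1 group. The deposited files hold raw counts of reads per miRNA gene, made on assembly mm10 with annotation M21 per the deposited README texts. The sources used here name no aligner, counting tool or trimming step. All 2202 identifiers matched GENCODE M21. The sense column was used, and tallies (unmapped, multimapping, no feature) stayed out of library sizes.

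CPM scales each gene's sense counts to 1000000 gene counts in its library. Intervals (exact Clopper-Pearson, 95%) and the floor of 3 counts cover counting error only, because the sources name no molecular identifiers. Ratios were tested across all genes averaging 10 counts or more by an exact binomial test conditional on each gene's total, with Benjamini-Hochberg adjustment. The test code was first tested on simulated Poisson counts. These carry counting error only, so they do not show how the test behaves with more spread between libraries. Hairpin windows came from GENCODE M21 transcripts. Python 3.11.15, SciPy 1.17.1, pandas 2.3.3, edgeR 4.0.16 (TMM factors) and DESeq2 1.42.0 (size factors) were used.

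Every member with sense counts in both libraries was named, and others as examples. Sequences planned for members were not printed, since RefSeq matched none. Members, lists and tests were chosen with earlier results of these data known. Alternatives were the unstranded column, other filters, scalings, denominators and membership, and each library left out.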

Additional observations from a re-analysis of the deposited data

How the results depend on the processing

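The 8 members with counts in both libraries became 4 when at least 10 counts were required in each. With 1 library left out, 9 members had counts. The summed share of 0.0316% became 0.0412% with the unstranded column, 0.00487% of all reads, and 0.0374% without the most abundant gene, Mir378a, in the totals. With the unstranded column the member counts stayed the same and only the totals fell. They were 644072 in replicate 1 and 1726574 in replicate 2, against 865419 and 2177048 in the sense column. With library totals 1 of 5 members was called; none was called with no filter (0 of 10, with 4 at an unadjusted exact p under 0.05), with only genes averaging 100 counts or more (0 of 2, with 2) or with the unstranded column (0 of 5, with 3), and 3 were called with no ratio threshold. These settings called 17.3%, 29.4%, 32.6% and 67.9% of all tested genes. A split of the members by unique windows of 16, 18, 20 or 22 bases, chosen after seeing the data, gave 32 without and 39 with such a window at each length. Multimapping reads stay out of gene counts under every setting run here, so none of them tests the 0 counts of the copies. A definition by RefSeq mature sequence was not run, since 0 of 71 members matched. The comparison between libraries needs both, so no library could be left out of it. No paired analysis was possible because the design holds 1 group. Depth limits every member under 3 counts.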

Other observations

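Inside Sfmbt2, 48 further miRNA genes with other symbols lie on the sense strand, interspersed with the 71 members. Of these, 22 have no unique 22-base window. They held 1 count in all, on Gm22239 (10510461 to 10510563) in replicate 2, which is under the limit of 3 counts.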
